A study of Mus musculus with 4 samples.

Results

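The genes described here are 6 genes outside the usual regulatory T (Treg) cell programs whose transcripts were scarcer in both libraries of transferrin receptor 1 (TfR1)-deficient Treg cells than in both wild-type (WT) libraries. They are *Cux2*, *Camta2*, *Sccpdh*, *Gm14085*, *Ttn* and *Prg4*, 6 of the 47729 genes listed and of the 12536 genes abundant enough to be tested. All 6 passed the count filter. None is on the list of 60 usual Treg genes used below. They were chosen by their CPM (counts scaled to a common library size) in these 4 libraries, each with both TfR1-deficient values well below both WT values, and for not being part of a usual Treg list. Their values between the genotypes are therefore given as a description, and no p-value of a member is given.

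TfR1, made from *Tfrc*, is the receptor through which most cells take up transferrin-bound iron, and the study examined how iron uptake bears on Treg cells. One group was *Tfrc* fl/fl *Foxp3* YFP-Cre/+ and the other, called WT, was *Tfrc* +/+ *Foxp3* YFP-Cre/+, with 2 biological replicates each, all C57BL/6. Both groups carry the *Foxp3* YFP-Cre allele, so Cre and YFP are made in Treg cells of controls and mutants alike, and because *Foxp3* is X-linked, heterozygous females also hold Treg cells without Cre. Treg cells were sorted as CD25+YFP+, from spleen according to the labels, while a legend of the study adds lymph nodes. Libraries came from a low-input kit, and the mice were young adults according to a general statement of the study on age. In bulk RNA, fewer cells of a type that makes a transcript and less of it per cell cannot be told apart.

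The libraries held 10841939 to 17278448 counts. *Tfrc* did not separate the labels, at 50.8 and 54.1 CPM in WT and 56.1 and 48.3 CPM in TfR1-deficient replicates 1 and 2 (log2 difference -0.01, adjusted p = 0.999, edgeR's quasi-likelihood test), and a count over the whole gene does not show which exons were read. Directions below rest on the labels. Treg markers were present in every library, with *Foxp3* at 194 and 130 CPM in WT and 122 and 114 CPM in TfR1-deficient cells. Of 6 markers (*Foxp3*, *Il2ra*, *Ikzf2*, *Ctla4*, *Cd3e* and *Cd4*), 5 had both TfR1-deficient values below both WT values, as had 18.9% of all genes tested. The exception was *Ikzf2*, at 477 and 572 CPM in WT and 556 and 322 CPM in TfR1-deficient replicates 1 and 2. The summed level of the 6 was 4118 and 3761 CPM in WT, and 3206 and 2851 CPM in TfR1-deficient replicates 1 and 2. That is the direction in which the members were chosen, and the part of this in the members' differences was not tested. Macrophage markers set replicates of the same genotype apart, and their values are given below beside those of the 6 genes.

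The 6 genes encode unrelated proteins. *Cux2* encodes a cut-homeobox transcription factor best known from upper-layer neurons of the cortex, and *Camta2* a calmodulin-binding transcription activator that is held in check by class IIa histone deacetylases in heart muscle. *Sccpdh* encodes a putative oxidoreductase related to saccharopine dehydrogenase, an enzyme of lysine breakdown, and its protein is often found on lipid droplets. *Gm14085* is a predicted gene, named *Slc28a2b* in RefSeq, that lies beside *Slc28a2*, which encodes a concentrative nucleoside transporter. *Ttn* encodes titin, the giant spring of the muscle sarcomere. *Prg4* encodes lubricin, a secreted mucin-like proteoglycan that lubricates joints and can bind CD44 and the Toll-like receptors TLR2 and TLR4.

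*Gm14085* is shown first in sequence, because its reads can be confused with those of its neighbour. It lies on the plus strand at chr2:122484941-122528040 (RefSeq, GRCm38.p6), and *Slc28a2* lies 23.8 kb away on the same strand. In the transcripts of GENCODE vM1 the coding sequences of both genes were 1983 bases long and differed at 108 bases (94.5% identity), and the encoded proteins differed at 56 of 660 residues. The longest stretch without a difference was 192 bases. Of all 50-base stretches of *Gm14085*, 40.6% also occurred in *Slc28a2*, the only other gene that shared any among the protein-coding transcripts. Transcripts of other kinds were not searched. The differences were concentrated. The window of 90 bases from base 385 to base 474 of the coding sequence held 37 of them, and it is printed for both genes with the differing bases in capitals.
Gm14085: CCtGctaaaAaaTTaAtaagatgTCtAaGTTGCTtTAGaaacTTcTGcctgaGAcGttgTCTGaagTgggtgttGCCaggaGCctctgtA
Slc28a2: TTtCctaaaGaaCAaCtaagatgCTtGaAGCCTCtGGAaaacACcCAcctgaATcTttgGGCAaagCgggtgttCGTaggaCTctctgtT
A read that covers this window can be assigned to one gene, whereas a read within the identical stretches cannot, and the handling of reads that match both genes is not given in the sources used here.

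The bases upstream of the transcription start were read for the 5 members with an entry in the RefSeq promoter table (GRCm38.p6). *Prg4* had none. Windows ran from 250 bases before to 50 bases after each start and were searched on both strands for ACGTG and GCGTG (the core letters of hypoxia response elements, which are bound by an iron- and oxygen-sensitive factor family), TGCTGA (the start of the sequence bound by MAF proteins) and TATAAA (the TATA box). None of these motifs contains another. The 250 upstream bases of *Gm14085* (chr2:122484691-122484940, plus strand), *Ttn* (chr2:76982548-76982797, minus strand) and *Camta2* (chr11:70688106-70688355, minus strand) are printed 5′ to 3′, because they show how unlike these genes are at their starts. Capitals mark the letters searched for, on either strand.
Gm14085: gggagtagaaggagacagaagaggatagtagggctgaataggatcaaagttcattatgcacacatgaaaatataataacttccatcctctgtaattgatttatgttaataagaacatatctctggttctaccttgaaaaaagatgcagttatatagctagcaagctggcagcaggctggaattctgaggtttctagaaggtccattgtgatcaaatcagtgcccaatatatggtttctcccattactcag
Ttn: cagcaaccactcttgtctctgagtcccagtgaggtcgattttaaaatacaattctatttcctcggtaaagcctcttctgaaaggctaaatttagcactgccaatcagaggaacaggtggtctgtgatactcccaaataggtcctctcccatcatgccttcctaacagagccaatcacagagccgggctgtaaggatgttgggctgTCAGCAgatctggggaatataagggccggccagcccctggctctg
Camta2: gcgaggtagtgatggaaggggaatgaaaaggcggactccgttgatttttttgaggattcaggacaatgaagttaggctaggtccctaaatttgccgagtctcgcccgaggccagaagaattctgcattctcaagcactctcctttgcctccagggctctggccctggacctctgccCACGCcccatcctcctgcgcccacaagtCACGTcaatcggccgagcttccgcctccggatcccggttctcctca
The upstream bases of *Gm14085* were 38.4% G or C, with none of the 4 motifs, those of *Ttn* were 50% G or C with 1 TGCTGA on the opposite strand, and those of *Camta2* at its first listed start, printed above, were 56.8% G or C with 1 ACGTG and 1 GCGTG, both on the opposite strand. At its second listed start *Camta2* had none of the motifs (69.2% G or C). *Sccpdh* had the most matches, with 1 ACGTG and 4 GCGTG in a window that was 73.6% G or C upstream of the start. *Cux2* had none of the motifs at its first listed start (80.0% G or C) and 1 TATAAA at its second. The listed starts need not be the ends of the gene spans given below. The upstream bases of *Sccpdh* (chr1:179667981-179668230) lie inside its span, as do those of *Cux2* at each start and of *Camta2* at its second. Those of *Ttn* and of *Camta2* at its first start overlap the spans in part. Of 32851 windows of the same length in the table, 19.6% held ACGTG, 32.4% GCGTG, 19.5% TGCTGA and 13.6% TATAAA, and the median share of G or C upstream was 52.4%. No motif was found in all of the members with an entry. These matches describe the letters only.

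Of the transcription regulators, *Cux2* (chr5:121857962-122050415, minus strand) showed the widest separation. In WT replicates 1 and 2 it was counted at 2.95 and 8.81 CPM (36 and 94 reads), and in TfR1-deficient replicates 1 and 2 at 0.288 and 0.292 CPM (5 and 4 reads). The exact Poisson 95% intervals, which cover counting error only, were 2.06 to 4.08 and 7.12 to 10.8 CPM in WT and 0.0936 to 0.672 and 0.0796 to 0.748 CPM in TfR1-deficient cells. The groups did not overlap, but the WT libraries themselves differed 2.99-fold and their intervals did not meet. The TfR1-deficient mean was 4.93% of the WT mean (0.290 ± 0.00274 against 5.88 ± 4.15 CPM, SD, n = 2 each), a log2 difference (TfR1-deficient minus WT, as throughout) of -4.30 (standard error, SE, 0.74) that was -3.31 without WT replicate 2. Per kilobase of exon *Cux2* was a rare transcript, at 0.734 CPM in WT cells, and 11.7% of tested genes lay lower.

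*Camta2* (chr11:70669463-70688145, minus strand) was at the other end, abundant and with the smallest difference of the 6. It stood at 117 and 112 CPM in WT replicates 1 and 2 and at 59.3 and 65.5 CPM in TfR1-deficient replicates 1 and 2. The replicates of each genotype lay within 1.10-fold of each other, and the higher TfR1-deficient value was well under the lower WT value. The TfR1-deficient mean was 54.5% of the WT mean (62.4 ± 4.37 against 114 ± 3.51 CPM, SD, n = 2 each), a log2 difference of -0.88 (SE 0.14). Per kilobase of exon it reached 22.0 CPM in WT cells, above 73.3% of tested genes.

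*Sccpdh* (chr1:179667749-179687189, plus strand), the oxidoreductase, was moderately expressed. It was counted at 15.1 and 12.9 CPM (185 and 138 reads) in WT and at 4.55 and 4.02 CPM (79 and 55 reads) in TfR1-deficient replicates 1 and 2. The groups were far apart relative to their replicates, and the lower WT value was 2.84 times the higher TfR1-deficient value. The TfR1-deficient mean was 30.5% of the WT mean (4.28 ± 0.380 against 14.0 ± 1.56 CPM, SD, n = 2 each), a log2 difference of -1.71 (SE 0.29).

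*Gm14085*, the nucleoside transporter homologue, was the most abundant of the 6 per kilobase of exon, at 22.9 CPM in WT cells. Its levels were 119 and 111 CPM in WT replicates 1 and 2 and 57.6 and 49.4 CPM in TfR1-deficient replicates 1 and 2, so the groups were clearly separate. The TfR1-deficient mean was 46.7% of the WT mean (53.5 ± 5.80 against 115 ± 5.53 CPM, SD, n = 2 each), a log2 difference of -1.10 (SE 0.15). Its near-identical neighbour *Slc28a2* was at 248 and 268 CPM in WT and 232 and 194 CPM in TfR1-deficient replicates 1 and 2, a smaller log2 difference of -0.28 (SE 0.16) that did not pass the test (adjusted p = 0.928, edgeR's quasi-likelihood test). Reads shared by the pair could have been counted for either gene or for neither, so the level of *Gm14085* is uncertain to that extent, and the part of such reads in its difference was not tested.

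*Ttn* (chr2:76703980-76982557, minus strand) had the closest WT replicates of the 6. It was at 32.9 and 32.8 CPM (402 and 350 reads) in WT and at 13.5 and 12.6 CPM (234 and 173 reads) in TfR1-deficient replicates 1 and 2. Both TfR1-deficient values were well under both WT values, and the Poisson intervals of replicates overlapped in each genotype. The TfR1-deficient mean was 39.7% of the WT mean (13.1 ± 0.605 against 32.9 ± 0.0698 CPM, SD, n = 2 each), a log2 difference of -1.33 (SE 0.20). Divided by the 116828 bases of exon annotated for the gene, *Ttn* was the rarest of the 6, at 0.281 CPM per kilobase in WT cells. Only 4.08% of tested genes lay lower. The count over the whole gene does not show which exons were read, so this level assumes reads along the full annotated length.

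Skeletal muscle markers were near 0 apart from *Mylpf*. Of 8 skeletal muscle markers, *Acta1*, *Myh1* and *Myh7* had no count in any library, and the summed level of all 8 was 18.4 and 33.1 CPM in WT and 32.3 and 19.7 CPM in TfR1-deficient replicates 1 and 2, nearly all of it from *Mylpf*. That sum did not separate the genotypes.

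*Prg4* (chr1:150449412-150466221, minus strand), the lubricin gene, was at 68.7 and 63.3 CPM in WT replicates 1 and 2 and at 28.9 and 32.9 CPM in TfR1-deficient replicates 1 and 2. The groups did not overlap, and replicates lay within 1.14-fold of each other. The TfR1-deficient mean was 46.8% of the WT mean (30.9 ± 2.87 against 66.0 ± 3.82 CPM, SD, n = 2 each), a log2 difference of -1.09 (SE 0.16). Its end overlaps that of *Tpr*, a nuclear pore gene on the opposite strand, by 524 bases, and whether counting used strand is not given in the sources used here. Of the 50-base stretches of *Prg4*, 3.84% also occurred in *Tpr*. *Tpr* was at 199.97 and 184 CPM in WT and 228 and 217 CPM in TfR1-deficient replicates 1 and 2 (log2 difference 0.21, SE 0.14), the opposite direction to *Prg4*. Markers of stromal cells, the usual makers of lubricin, summed to at most 1.53 CPM in any library, with *Dcn* and *Lum* at 0 in all 4.

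**Figure D1:**
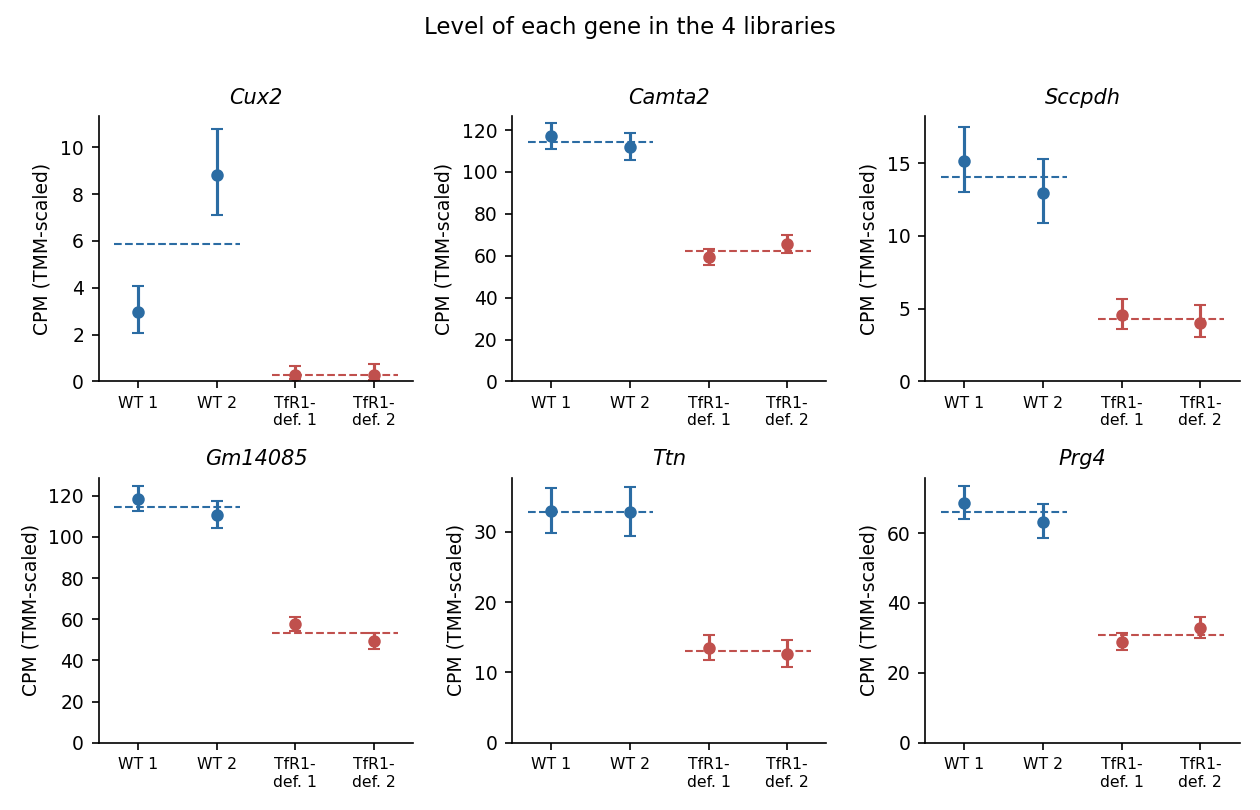
CPM of the 6 genes (vertical axes from 0, scaled by TMM) in WT replicates 1 and 2 (blue) and TfR1-deficient replicates 1 and 2 (red). Bars are exact Poisson 95% intervals and dashed lines are group means; in every panel both red points lie below both blue points, and the WT points of *Cux2*, at 2.95 and 8.81 CPM, are the only pair far apart.

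The order of the separations was taken as the gap between the lower WT and the higher TfR1-deficient value on the log2 CPM scale with a prior count of 2. *Cux2* had a gap of 2.81 and ranked 1 of all 12536 genes tested, *Sccpdh* had 1.48 (rank 17) and *Ttn* 1.27 (rank 30). *Gm14085* and *Prg4* both had 0.94 (ranks 66 and 67), and *Camta2* had 0.77 (rank 105). The gap of *Camta2*, the member nearest the edge, was followed at rank 106 by that of *St6galnac6*, a sialyltransferase gene, also 0.77, with 3.44 and 2.72 CPM in WT and 1.38 and 1.53 CPM in TfR1-deficient replicates 1 and 2. The members are thus a selection from a longer order, since 105 genes had a gap at least as large as that of *Camta2*, of which 6 were the members, 11 were on the usual Treg list and 88 were neither.

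Counts of members past a threshold follow from how they were chosen, and the share of all genes is given only to place them. Both TfR1-deficient values lay below both WT values in 2369 of 12536 genes (18.9%) and in 6 of 6 members, and by at least the smallest member gap in 105 genes (0.838%) and in 6 of 6 members. At an unadjusted p under 0.05 with a log2 difference of at least 0.5, edgeR called 311 genes lower (2.48%), all 6 members among them, and 200 genes higher (1.60%), with 0 members. After adjustment over all genes edgeR called 0 genes in either direction (0%), whereas DESeq2 called 28 of 22368 genes lower (0.125%), with all 6 members among them. The 22368 are all genes with a count in any library, and DESeq2 can leave scarce genes out of its adjustment. Its share is therefore not comparable with those of edgeR. As the p-values come from 2 libraries a group, they measure only the spread between these libraries.

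**Figure D2:**
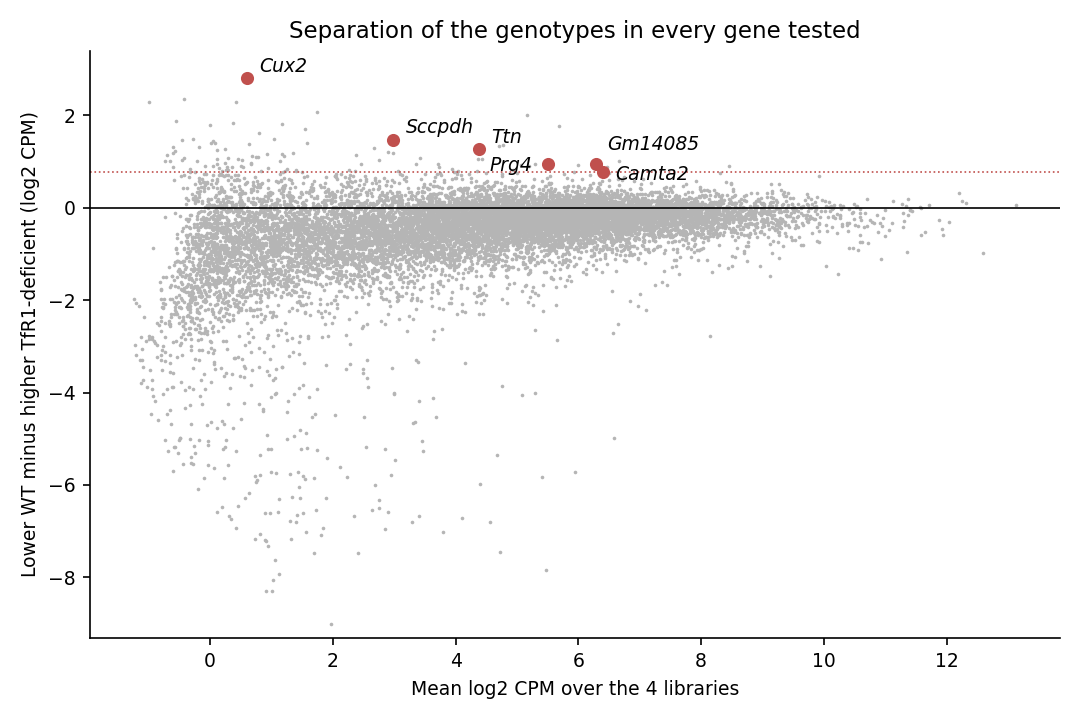
Each point is 1 of the 12536 genes tested, with its mean log2 CPM over the 4 libraries (horizontal) and the log2 CPM gap between the lower WT and the higher TfR1-deficient library (vertical, positive where both TfR1-deficient values lie below both WT values). The 6 genes are in red, *Cux2* at the top with 2.81, and the dotted line is the gap of *Camta2*, 0.77.

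Replicates of the 6 genes were compared with a difference between libraries of the same genotype. The summed level of 12 macrophage markers was 1106 and 90.8 CPM in WT replicates 1 and 2 and 64.8 and 3348 CPM in TfR1-deficient replicates 1 and 2, a 12.2-fold difference within WT and a 51.7-fold difference within TfR1-deficient libraries. The 6 genes showed no differences of that size between replicates of either genotype, the largest being 2.99-fold for *Cux2* within WT. *Prg4* and *Camta2* were slightly higher in the libraries richer in macrophage transcripts. Apart from *Cux2*, the ratio of WT replicate 1 to 2 ran from 1.003 for *Ttn* to 1.17 for *Sccpdh*, and the ratio of TfR1-deficient replicate 2 to 1 ran from 0.858 for *Gm14085* to 1.14 for *Prg4*, while the median gene differed 1.24-fold within WT and 1.21-fold within TfR1-deficient libraries. The choice of members by separate groups favours genes with close replicates, so these ratios are a description only. *Cux2* was higher in WT replicate 2, the WT library with fewer macrophage transcripts. When only WT replicate 2 and TfR1-deficient replicate 1 were compared, the libraries low in these markers, the log2 differences were -4.36 for *Cux2*, -1.48 for *Sccpdh*, -1.27 for *Ttn*, -1.13 for *Prg4*, -0.94 for *Gm14085* and -0.92 for *Camta2*, with 1 library a group and hence no error. Their negative sign was fixed by the choice of members. The part of macrophage transcripts in the members' differences was not tested.

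**Figure D3:**
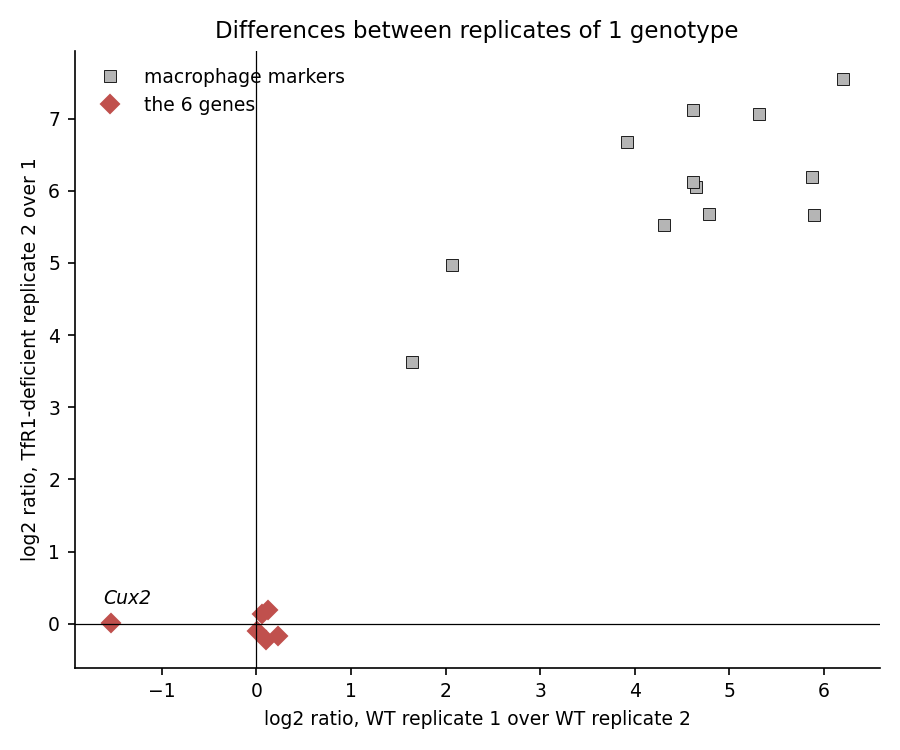
Log2 ratio of WT replicate 1 over 2 (horizontal) against the log2 ratio of TfR1-deficient replicate 2 over 1 (vertical) for 12 macrophage markers (grey squares) and the 6 genes (red diamonds), each CPM raised by a prior of 2 counts in a mean library. All markers lie at positive values on both axes; the 6 genes lie near 0, except that *Cux2* is to the left, as it was 2.99-fold higher in WT replicate 2.

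Genes related to each member were read from the same fit over all genes tested, to see whether a family or pathway moved along. Over all genes the median log2 difference was 0.01. Beside *Cux2*, the CUT-domain homeobox list had 2 of 6 genes tested, with 0 called lower and 1 higher at an unadjusted p under 0.05 with a log2 difference of at least 0.5 (median 0.16). *Cux1*, its paralogue, was far more abundant than *Cux2*, at 85.7 and 74.1 CPM in WT and 64.3 and 75.8 CPM in TfR1-deficient replicates 1 and 2, and did not separate the groups (log2 difference -0.19, SE 0.16, adjusted p = 0.95). *Satb1*, a chromatin organiser that is also on the Treg list, was at 213 and 206 CPM in WT and 305 and 294 CPM in TfR1-deficient cells (0.52, SE 0.13, unadjusted p = 0.0102, adjusted p = 0.911), the opposite direction to *Cux2*.

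Beside *Camta2*, 19 of 23 genes of calmodulin, class IIa histone deacetylase and MEF2 function were tested, and 0 were called lower and 0 higher at an unadjusted p under 0.05 with a log2 difference of at least 0.5 (median 0.03). The paralogue *Camta1* was at 8.19 and 11.8 CPM in WT and 9.80 and 6.42 CPM in TfR1-deficient replicates 1 and 2, so its groups overlapped (-0.30, SE 0.37, adjusted p = 0.955). Of the protein kinase genes of the list, 3 lay just under the minimum difference, *Prkd2* lower (-0.49, SE 0.18, unadjusted p = 0.0358) and *Prkcd* (0.45, SE 0.17, unadjusted p = 0.0467) and *Prkd3* (0.45, SE 0.17, unadjusted p = 0.0468) higher, each with an adjusted p of 0.911.

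Beside *Sccpdh*, 6 of 10 genes of lysine catabolism were tested with 0 called in either direction (median -0.10), and *Aass*, which encodes the enzyme that holds saccharopine dehydrogenase activity, was too scarce to be tested. *Gcdh*, a later enzyme of that route, had -0.31 (SE 0.20, adjusted p = 0.934). Of 23 lipid droplet genes 15 were tested, with 0 called lower and 1 higher (median 0.04). The one was *G0s2*, an inhibitor of triglyceride lipase, at 0.246 and 0.562 CPM in WT and 1.44 and 2.41 CPM in TfR1-deficient cells (2.24, SE 0.73, unadjusted p = 0.0263, adjusted p = 0.911). The decrease of *Sccpdh* was thus not accompanied by called decreases in either list.

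Beside *Gm14085*, 24 of 30 nucleoside transport and salvage genes were tested, with 2 called lower and 0 higher at an unadjusted p (median -0.16). Both TfR1-deficient values lay below both WT values in 8 of the 24 and above in 2, against 2369 below (18.9%) and 2012 above of all 12536 genes. The 8 include *Slc28a2*, whose reads can be confused with those of *Gm14085*. In the lists of the other members these counts were 0 below and 1 above of 2 for CUT-domain homeobox genes, 2 and 4 of 19 for calmodulin, histone deacetylase and MEF2 genes, 2 and 0 of 6 for lysine catabolism, 4 and 2 of 15 for lipid droplets, 4 and 2 of 13 for the sarcomere and 2 and 2 of 9 for proteoglycans. The 2 genes called lower were *Xdh*, xanthine oxidoreductase of purine breakdown, at 70.2 and 67.5 against 48.9 and 44.6 CPM (-0.56, SE 0.14, unadjusted p = 0.0110), and *Ampd2*, an AMP deaminase, at 115 and 98.2 against 71.2 and 79.0 CPM (-0.51, SE 0.16, unadjusted p = 0.0214), each with an adjusted p of 0.911. The other concentrative transporters, *Slc28a1* and *Slc28a3*, were too scarce to be tested. *Slc29a1*, an equilibrative nucleoside transporter, had -0.26 (SE 0.16, adjusted p = 0.934).

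Beside *Ttn*, only 13 of 51 sarcomere and titin-binding genes were tested, with 0 called in either direction (median -0.06). The most abundant, *Sqstm1* (-0.28, SE 0.17), *Nbr1* (-0.23, SE 0.21) and *Capn3* (-0.37, SE 0.15, adjusted p = 0.911), encode partners of titin that also act outside muscle. Sarcomere genes with both TfR1-deficient values above both WT values were *Neb*, nebulin (0.45, SE 0.21, unadjusted p = 0.0802), and *Tnnt2*, a troponin T gene (0.999, SE 0.42, unadjusted p = 0.0597), each with an adjusted p of 0.911. Beside *Prg4*, 9 of 28 proteoglycan, hyaluronan and lubricin receptor genes were tested, with 1 called lower and 1 higher (median 0.49). *Cd44*, a lubricin receptor, was at 132 and 117 CPM in WT and 65.4 and 99.2 CPM in TfR1-deficient replicates 1 and 2 (-0.60, SE 0.23, unadjusted p = 0.0491, adjusted p = 0.911), and *Hyal3*, a hyaluronidase, at 0.327 and 0.844 against 2.19 and 2.41 CPM (1.97, SE 0.66, unadjusted p = 0.0294, adjusted p = 0.911). Neither of the other receptors passed: *Tlr2* was at 5.89 and 3.56 against 6.40 and 8.10 CPM (0.61, SE 0.40), and *Tlr4* at 3.85 and 1.78 against 0.634 and 13.4 CPM (1.31, SE 1.29), the highest value being in the library richest in macrophage transcripts.

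**Figure D4:**
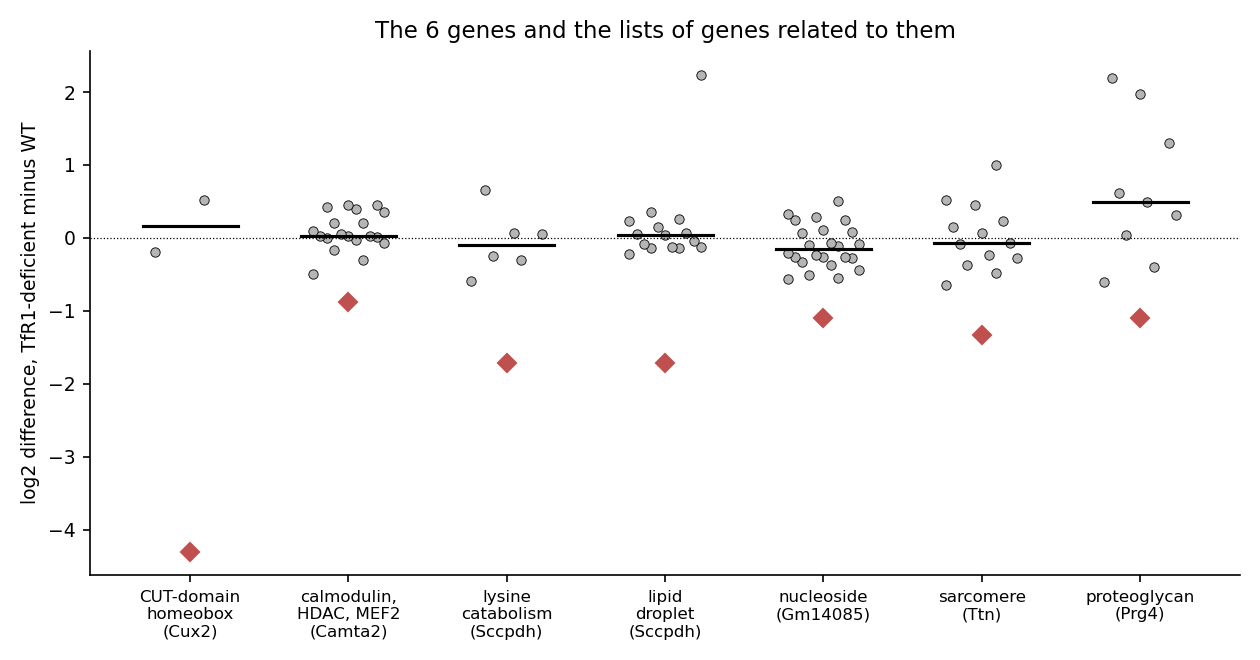
Log2 difference of TfR1-deficient minus WT (vertical) for the tested genes of 7 lists (grey points, black bar at the median) and for the member each list was built around (red diamond). The medians lie between -0.16 and 0.49, and each red diamond lies below every grey point of its list.

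By comparison, of the 60 usual Treg genes, a list that holds no member, 59 were tested. Of these, 23 were called lower and 1 higher at an unadjusted p (median -0.63), and 0 after adjustment. Of all 12536 genes tested, 311 (2.48%) were called lower and 200 (1.60%) higher at an unadjusted p. The list was written with earlier results of these data known, so its counts are a description. Where the 6 genes stood on the log2 scale was within the span of that list, which ran from -2.88 for *Il10* to 0.52 for *Satb1*, except for *Cux2*, at -4.30. The usual Treg genes closest to the members in pattern are named below.

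The chromosomal surroundings of the members had no part in their choice. Neighbours were taken from the 11335 tested genes with a RefSeq position, so tested genes without one could not appear. The 3 nearest on each side gave 36 neighbours, of which 1 was called lower and 2 higher at an unadjusted p. In 9 both TfR1-deficient values lay below both WT values and in 10 both lay above, with a median log2 difference of 0.12. Over all 12536 genes tested, 2369 (18.9%) lay below in this way and 2012 above. Of those genes, 311 (2.48%) were called lower and 200 (1.60%) higher. Named for their call alone, the neighbour called lower was *Rgs1* (-0.85), which lies 6200307 bases from *Prg4*. The neighbours called higher were *Eno3* (0.70), 6949 bases from *Camta2*, and *Cdc42bpa* (1.39), 272889 bases from *Sccpdh*. *Spag7*, which lies only 46 bases from *Camta2*, was at 56.4 and 43.3 CPM in WT and 42.0 and 53.7 CPM in TfR1-deficient replicates 1 and 2, so its groups overlapped (-0.06, SE 0.22), and *Kif1c* on the other side of *Camta2* had -0.07 (SE 0.38). In both of these neighbours of *Camta2* the libraries of the genotypes overlapped. Around *Cux2*, *Fam109a* (3.36 kb away) had 0.33 (SE 0.47) and *Ppp1cc* 0.15 (SE 0.25). Around *Ttn*, *Plekha3* (6.64 kb away) had 0.24 (SE 0.39) and *Ccdc141* -0.57 (SE 0.54). None of the genes next to *Cux2* and *Ttn* passed the test. Around *Sccpdh*, *Cnst* had -0.22 (SE 0.13) and *Ahctf1* 0.04 (SE 0.26). On the far side of *Prg4* from *Tpr*, *Ivns1abp* had -0.10 (SE 0.22). Around *Gm14085*, *Bambi-ps1* had -0.31 (SE 0.26), and *Gatm* 1.72 (SE 1.37), the latter at 14.5 CPM in TfR1-deficient replicate 2 and 0.375 to 4.42 CPM elsewhere. None of these nearest neighbours passed an unadjusted p of 0.05.

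**Figure D5:**
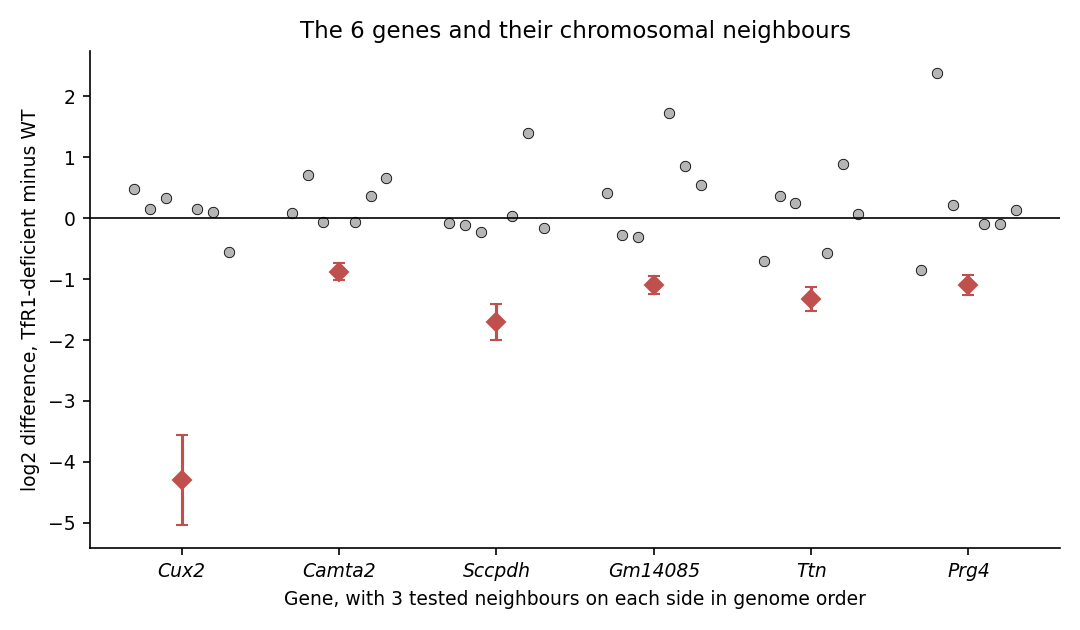
Log2 difference of TfR1-deficient minus WT (vertical) for the 6 genes (red diamonds with standard errors) and for the 3 nearest tested genes with a RefSeq position on each side of each (grey points, in genome order, not to scale of distance). The neighbours spread around 0, from -0.85 to 2.38, while the 6 genes run from -4.30 to -0.88.

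Genes with a pattern like that of a member were found by the root-mean-square difference of log2 CPM over the 4 libraries, each gene centred on its own mean. As a likeness to a member carries that member's separation with it, these are descriptions over 4 libraries. *Camta2* had the closest match, *Cyfip1*, an actin regulator of the WAVE complex, with a difference of 0.0106 and levels of 125 and 120 CPM in WT and 62.7 and 70.7 CPM in TfR1-deficient replicates 1 and 2. *Fam65c* (0.0142) and *Tnfsf9*, the ligand of 4-1BB (0.0383), followed. *Prg4* was closest to *Mrgpre* (0.0349), *Gm15821* (0.0563) and the follicle-homing chemokine receptor gene *Cxcr5* (0.0641). *Cxcr5* is on the usual Treg list and stood at 55.7 and 58.1 CPM in WT and 24.9 and 29.0 CPM in TfR1-deficient cells, nearly the levels of *Prg4*.

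*Sccpdh* was closest to 2 genes of the usual Treg list, *Fgl2* (0.0812), a secreted suppressive mediator, and *Ahr* (0.0906), the aryl hydrocarbon receptor, and then to *Plcxd2* (0.116). *Fgl2* was at 23.9 and 23.5 CPM in WT and 7.38 and 7.01 CPM in TfR1-deficient replicates 1 and 2. *Ttn* was closest to a gene without a symbol, ENSMUSG00000102323 (0.0392), to *Apol10b* (0.0679) and to *Rnf43*, a Wnt receptor ubiquitin ligase (0.0725), at 44.4 and 40.5 CPM in WT and 15.8 and 15.99 CPM in TfR1-deficient cells. *Gm14085* was closest to the scramblase gene *Plscr1* (0.0534), *Ybey* (0.0605) and *Mcoln2* (0.0619). *Cux2* had no close match, its nearest genes being ENSMUSG00000102975 (0.676), *Mmp9* (0.787) and ENSMUSG00000097899 (0.843), all scarce.

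The 13 alternative settings gave 77 log2 differences for the members, and 77 of 77 were negative. They ran from -4.87 to -3.31 for *Cux2*, -1.82 to -1.48 for *Sccpdh*, -1.35 to -1.27 for *Ttn*, -1.20 to -0.97 for *Prg4*, -1.18 to -0.94 for *Gm14085* and -0.95 to -0.77 for *Camta2*. As the members were chosen for values that do not overlap, leaving out a library could not turn their direction.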

How the data were processed

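Sorted Treg cells, in 2 WT and 2 TfR1-deficient biological replicates, were profiled by RNA-seq, and groups were taken from the genotype labels. Reads were trimmed, mapped and counted per gene by the authors with Trim Galore 0.6.7, STAR 2.7.9a and featureCounts, according to the submitters' processing notes, and the authors deposited raw counts per Ensembl gene, not normalized or pooled. The notes name mm10 and the methods mm9. Identifiers run to number 109578, past 93374 in GENCODE vM1, so a later annotation was used for counting, and coordinates printed here are those of RefSeq on GRCm38.p6 (mm10). GENCODE vM1 served for exon lengths and transcript sequences only.

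Here the counts were filtered with filterByExpr (minimum of 10 counts), which left 12536 genes, scaled by TMM and tested with edgeR 4.0.16 in R 4.3.3 (quasi-likelihood test, genotype only, Benjamini-Hochberg adjustment over all genes tested, adjusted p under 0.05 and log2 difference of at least 0.5). The standard error (SE) is the log2 difference divided by the square root of the F statistic. Log2 CPM uses a prior count of 2. The fit was tested on simulated counts. Symbols were found for 32799 of 47729 identifiers, and genes without one held 0.907% of counts. There were 0 unused sample columns.

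The members and lists were chosen with earlier results of these data known. Genes named are the members, their 3 nearest patterns each, paralogues, nearest neighbours, the genes next to the members in the order of gaps, the list genes at an unadjusted p under 0.05 with that minimum difference, and up to 3 of the most abundant in each list. Some genes that meet this rule are not shown, and of the usual Treg list only its range and nearest patterns are named. Others named were chosen after their values were seen (*Tlr2*, *Tlr4*, *Aass*, *Il10*, *Prkcd*, *Prkd3*, *Neb*, *Tnnt2*, *Rgs1*, *Eno3*, *Cdc42bpa*). Alternatives were DESeq2 1.42.0, other scalings and filters, a replicate block and the omission of each library. With totals of 10841939 to 17278448 counts, the Poisson intervals of replicates overlapped in each genotype for *Ttn* and *Sccpdh*, whereas the WT replicates of *Cux2* differed beyond counting error.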

Additional observations from a re-analysis of the deposited data

How the results depend on the processing

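Every call is limited by having only 2 libraries a group. At an adjusted p edgeR called 0 genes higher and 0 lower, which became 167 and 95 without a count filter and 6 and 28 with DESeq2. At an unadjusted p it called 200 higher and 311 lower, with 650 higher without a count filter. Leaving out 1 library gave 169 to 353 higher (the most without TfR1-deficient replicate 1) and 131 to 382 lower (the fewest without WT replicate 1).

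Libraries of the same number did not pair: their deviations from the group means correlated at -0.61. A replicate block gave 0 and 0 genes at an adjusted p, and 70 higher and 141 lower at an unadjusted p. A crossed replicate pairing, chosen after seeing the data, gave 150 higher and 210 lower at an adjusted p and 596 and 519 at an unadjusted p.

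All member values stayed negative, a sign that the choice of members by values that do not overlap had fixed. Leaving out 1 library gave -4.87 to -3.31 for *Cux2* (the smallest without WT replicate 2), -1.35 to -1.29 for *Ttn*, -1.20 to -0.97 for *Prg4*, -1.82 to -1.57 for *Sccpdh*, -0.95 to -0.77 for *Camta2* and -1.18 to -0.996 for *Gm14085*. In the comparison of WT replicate 2 with TfR1-deficient replicate 1 alone, *Ttn* was at -1.27, *Sccpdh* at -1.48 and *Gm14085* at -0.94. *Cux2* had too few reads to stay in the table with at least 10 counts in every library, so that setting gave it no value.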

Other observations

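Of the 88 genes that were neither members nor on the usual Treg list and had a gap at least as large as that of *Camta2*, 6 had a mean WT level of at least 50 CPM. Their choice was made with the values in view, and the values are a description. *Cd96*, a nectin-binding receptor gene, was at 471 and 541 CPM in WT and 252 and 239 CPM in TfR1-deficient replicates 1 and 2. *Per1*, of the circadian clock, was at 152 and 118 against 63.9 and 53.7 CPM, and *Tiam1*, a RAC exchange factor gene, at 111 and 92.4 against 48.2 and 32.2 CPM. *Plcxd2* was at 95.4 and 96.8 against 27.9 and 26.7 CPM, *Gbp5*, an interferon-induced GTPase gene, at 72.4 and 80.1 against 17.7 and 15.5 CPM, and *Iqce* at 53.0 and 49.2 against 25.7 and 26.1 CPM.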
